A study of Homo sapiens with 2 samples.

Results

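Integrins are receptors of the cell surface built from 1 alpha and 1 beta subunit, and the pair decides which matrix protein the cell holds on to. ITGAV pairs with ITGB3, ITGB5, ITGB6 or ITGB8 into receptors that read the RGD motif in vitronectin, fibronectin and the propeptide of latent TGF-beta, whereas ITGB1 pairs with many alpha subunits, among them the collagen receptor subunit ITGA2, the laminin receptor subunits ITGA3 and ITGA6 and the fibronectin receptor subunit ITGA5. ITGB4 pairs with ITGA6 into the laminin receptor of hemidesmosomes, and ITGB8 with ITGAV is known as an activator of latent TGF-beta. The 10 subunits ITGAV, ITGB1, ITGB3, ITGB5, ITGB8, ITGA2, ITGA3, ITGA5, ITGA6 and ITGB4 were taken by gene name from the deposited tables. All 10 were listed, among 12014 genes, and all 10 had a mean of at least 1 FPKM. FPKM stands for fragments per kilobase of transcript, scaled to the size of the library, which allows levels of different genes to be compared.

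ACHN, an established human renal cell carcinoma line, received by lentivirus either a control shRNA (shNC) or one directed at KIAA1429 (shKIAA1429), and stable cells selected with puromycin gave the poly(A) RNA that was sequenced. The comparison asks how the transcriptome of these cells differs once KIAA1429, a subunit of the m6A methyltransferase complex, is targeted. There was 1 library per group, so no difference has a replicate check, no test was run, and an order of levels cannot be set against a spread. The shKIAA1429 library is called a KIAA1429 knockout in the sample labels but a knockdown in the paper, and which of several shRNAs it carried is not given in the sources used here.

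KIAA1429 (listed as VIRMA, chromosome 8) was at 3.92 FPKM with shNC and 3.22 FPKM with shKIAA1429, 82.1% of the control level. Its transcript was thus far from absent in the library labelled as a knockout. The log2 change, -0.22, lay between -0.40 and -0.10 over the settings tried. By RT-qPCR and western blot, the paper reports significantly lower KIAA1429 mRNA and protein in its ACHN knockdown cells. ACTB and GAPDH, common reference genes, had log2 changes of -0.25 and -0.31. How deeply the libraries were sequenced is unknown. The listed genes summed to 283046 FPKM with shNC and 249409 FPKM with shKIAA1429, of which the 13 mitochondrial genes made up 42.2% and 34.6%, and beyond rescaling the part of this shift in the values of the subunits was not tested. Of 11 markers of renal epithelium, 10 were listed and EMX2 was not. Their median log2 change was -0.27. The highest was the renal transcription factor PAX8, at 64.7 FPKM with shNC and 104 FPKM with shKIAA1429 (0.68), and the lowest was LHX1, another transcription factor of the kidney, at 11.0 and 4.44 FPKM (-1.14). The epithelial adhesion gene EPCAM, named after its values were seen, was at 32.8 and 23.1 FPKM (-0.49). By any amount 3 of the 10 were higher with shKIAA1429 and 7 lower, against 57.3% and 42.7% of all genes compared. Summed over the list these markers reached 654 FPKM with shNC and 601 FPKM with shKIAA1429. The keratin gene KRT19, named after its values were seen, went from 292 to 212 FPKM. That is a larger fall than the fall of the sum. The part of these differences in the integrin values was not tested. None of the 3 endothelial markers was listed, of the leukocyte markers only CD68 was, and of the 5 fibroblast markers COL1A1 and PDGFRB were, at under 2 FPKM in both libraries.

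ITGB8 differed most among the 10 subunits. ITGB8, ITGB3 and ITGAV were the 3 of the 10 whose log2 of (FPKM + 1) was more than 0.5 higher with shKIAA1429. Outside the 10, ITGA4 and ITGA11 were also higher by more than 0.5 (0.79 each), and ITGB2 was lower (-0.09). ITGB4 and ITGA6, the laminin receptor of hemidesmosomes, were lower with shKIAA1429. ITGA3, another laminin receptor subunit, and the collagen receptor subunit ITGA2 were higher. In bulk RNA, a lower level in every cell and fewer cells with the transcript cannot be told apart. Of the 10 subunits, 8 were higher and 2 were lower, where 57.3% of the 10702 genes with a mean of at least 1 FPKM were higher by any amount and 42.7% lower. The paper's methods give a log2 limit of 1.5 together with a P value limit, from DESeq2. Here only the 1.5 was used, on log2 of (FPKM + 1) and without a P value. By more than 1.5, 1 of the 10 was higher and 0 were lower, against 0.383% and 0.252% of all genes (1.24% and 0.299% once both libraries were scaled to the same sum). The 10, ITGB8 among them, were chosen with earlier results of these data known, so these counts only describe the choice. By more than 0.5 the counts were 3 and 0, against 9.9% and 6.12%. The median log2 change was 0.24 over the 10 subunits and 0.06 over all genes.

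**Figure D1:**
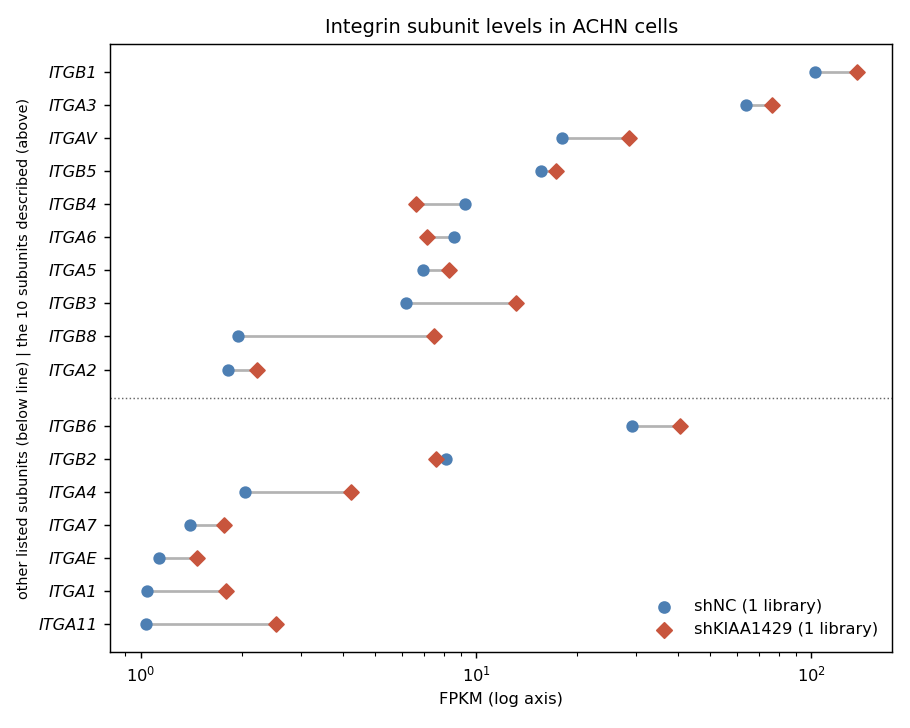
Level of the 17 listed integrin subunits in the shNC library (circles) and the shKIAA1429 library (diamonds), in FPKM on a log axis, with the 10 subunits described here above the dotted line and the other listed subunits below it, each point 1 library. ITGB8 has the longest line, from 1.95 to 7.47 FPKM, and ITGB4 and ITGA6 are the subunits above the dotted line whose diamond lies to the left of the circle.

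The beta subunit ITGB8 (ENSG00000105855.9_2) lies on the plus strand of chromosome 7 of GRCh37 from 20370325 to 20455377. ITGB8 stood at 1.95 FPKM with shNC and at 7.47 FPKM with shKIAA1429, 3.82 times as high, which is a log2 change of 1.52. Over the 12007 listed symbols its level held rank 9083 from the highest with shNC and rank 4571 with shKIAA1429. In 20 bins of genes of like mean FPKM, 1 gene in its bin of 535, itself included, had a higher log2 change. Over the 10702 genes, 38 did. ITGB8 was therefore among the genes that differed most, at a control level low enough for the added 1 FPKM to matter: with 0.1 in its place the log2 change was 1.88. It came to 1.97 when both libraries were scaled to the same sum. It came to 1.46 after subtraction of the all-gene median, and to 1.22 when the median change of genes with transcripts of like GC content and length was removed, the last 2 values within 1.5.

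The integrin ITGAV:ITGB3 is a vitronectin receptor. ITGB3 (chromosome 17 of GRCh37, 45331212 to 45389182, plus strand) was at 6.18 FPKM with shNC and 13.2 FPKM with shKIAA1429, 2.13 times as high, with a log2 change of 0.98. In its bin of 535 genes, 8 had a higher log2 change. ITGAV (chromosome 2 of GRCh37, 187454792 to 187545628, plus strand), the alpha subunit these beta subunits share, was at 18.1 FPKM with shNC and 28.6 FPKM with shKIAA1429, a log2 change of 0.63, with 35 genes of its bin above it. Removing the median change of transcripts of like GC content and length left 0.90 for ITGB3 but 0.35 for ITGAV. On rescaling to a sum of 1000000, ITGB3 came to 1.24 and ITGAV to 0.83. ITGB5 (chromosome 3 of GRCh37, 124480795 to 124620265, minus strand), the other vitronectin receptor subunit, was at 15.6 and 17.3 FPKM, a log2 change of 0.14 that was close to the median of all genes.

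ITGB6, the epithelial partner of ITGAV and the other activator of latent TGF-beta, is not among the 10 subunits but is needed to describe the partners of ITGAV. It was at 29.2 FPKM with shNC and 40.6 FPKM with shKIAA1429, a log2 change of 0.46. Of the FPKM summed over ITGB3, ITGB5, ITGB6 and ITGB8, ITGB6 made up 55.1% with shNC and 51.7% with shKIAA1429, the largest share in both libraries. The share of ITGB8 was 3.69% with shNC and 9.51% with shKIAA1429, 2.58 times as large. ITGB3 went from 11.7% to 16.8%, and ITGB5 from 29.5% to 22.0%. These shares are ratios within a library, so the scaling between libraries does not touch them. The trend with GC content and length can. Genes with transcripts like those of ITGB8 and ITGB6 had median log2 changes of 0.30 and 0.28. Those like ITGB3 and ITGB5 had 0.08 and 0.04. The part of this trend in the shares was not tested. The 4 beta subunits together were at 53.0 FPKM with shNC and 78.6 FPKM with shKIAA1429, and the ratio of ITGAV to this sum was 0.342 and 0.364. The sum of the beta subunits and ITGAV were thus higher by similar factors, while the makeup of the sum differed. Shares of RNA do not give shares of receptors on the cell surface, which were not measured.

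**Figure D2:**
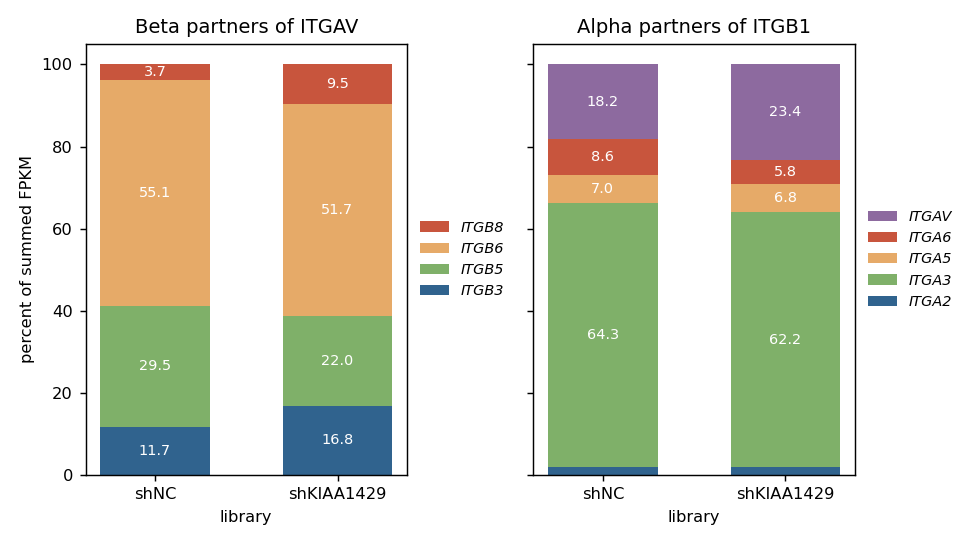
Percent of summed FPKM in each library (stacked bars, 1 library per bar, axis from 0) for the beta partners of ITGAV on the left and 5 alpha partners of ITGB1 on the right. ITGB8 makes up 3.69% of the left stack with shNC and 9.51% with shKIAA1429, and in the right stack ITGAV goes from 18.2% to 23.4% and ITGA6 from 8.64% to 5.83%.

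ITGB1, the beta subunit that most alpha subunits of epithelial cells share (chromosome 10 of GRCh37, 33189247 to 33294720, minus strand), was the most abundant of the 10 in both libraries, at 102 FPKM with shNC and 137 FPKM with shKIAA1429, a log2 change of 0.41. In its bin, that of the 536 most abundant genes, 49 had a higher log2 change, and the median log2 change was -0.06. ITGA3 (chromosome 17 of GRCh37, 48133332 to 48167845, plus strand), whose pair with ITGB1 binds laminin, followed it with 63.8 and 76.1 FPKM, a log2 change of 0.25. The fibronectin receptor subunit ITGA5 (chromosome 12 of GRCh37, 54789045 to 54813244, minus strand) was at 6.96 and 8.30 FPKM, a log2 change of 0.22. ITGA2 (chromosome 5 of GRCh37, 52285156 to 52390609, plus strand), a collagen receptor subunit, was the least abundant of the 10 in both libraries, at 1.83 and 2.22 FPKM, a log2 change of 0.19. With the median change of transcripts of like GC content and length removed, the value of ITGA2 was -0.01. All 4 were higher in the shKIAA1429 library, and none by more than 0.5, but ITGB1 came to 0.60 on rescaling to a sum of 1000000.

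Among the alpha partners ITGA2, ITGA3, ITGA5, ITGA6 and ITGAV, ITGA3 made up 64.3% of the summed FPKM with shNC and 62.2% with shKIAA1429. The share of ITGAV was 18.2% and 23.4%, that of ITGA6 8.64% and 5.83%, that of ITGA5 7.01% and 6.78%, and that of ITGA2 1.84% and 1.81%. The ratio of ITGB1 to the 5 alpha subunits together was 1.03 with shNC and 1.12 with shKIAA1429. The makeup of these 5 partners was thus much the same in both libraries apart from ITGAV and ITGA6, whose shares moved in opposite directions. The sum leaves out ITGA4, ITGA11, ITGA1 and ITGA7, listed subunits that also pair with ITGB1. Each was under 5 FPKM in both libraries and higher with shKIAA1429.

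ITGA6 and ITGB4 form the laminin receptor that anchors keratin filaments in hemidesmosomes, and both were lower in the shKIAA1429 library. ITGB4 (chromosome 17 of GRCh37, 73717408 to 73753899, plus strand) was at 9.26 FPKM with shNC and 6.62 FPKM with shKIAA1429, 71.5% of the shNC value, with a log2 change of -0.43. In its bin of 535 genes, 37 had a lower log2 change. ITGA6 (chromosome 2 of GRCh37, 173292082 to 173371010, plus strand) was at 8.58 and 7.13 FPKM, 83.1% of the shNC value, with a log2 change of -0.24, with 96 genes of the same bin below it. The ratio of ITGA6 to ITGB4 was 0.926 with shNC and 1.08 with shKIAA1429. Both values stayed below 0 under the 6 alternatives tried, and ITGA6 was nearest to 0, at -0.08, when both libraries were scaled to a sum of 1000000. Rescaling moved the median of all genes up by 0.18.

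In the order of levels, ITGB1, ITGA3, ITGAV and ITGB5 held ranks 1 to 4 in both libraries and ITGA2 rank 10. The order below ITGB5 differed. With shNC it was ITGB4, ITGA6, ITGA5, ITGB3 and ITGB8, between 9.26 and 1.95 FPKM. With shKIAA1429 it was ITGB3, ITGA5, ITGB8, ITGA6 and ITGB4. Of these, ITGA5, ITGB8, ITGA6 and ITGB4 lay between 8.30 and 6.62 FPKM, a narrow range whose order has no replicate behind it.

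**Figure D3:**
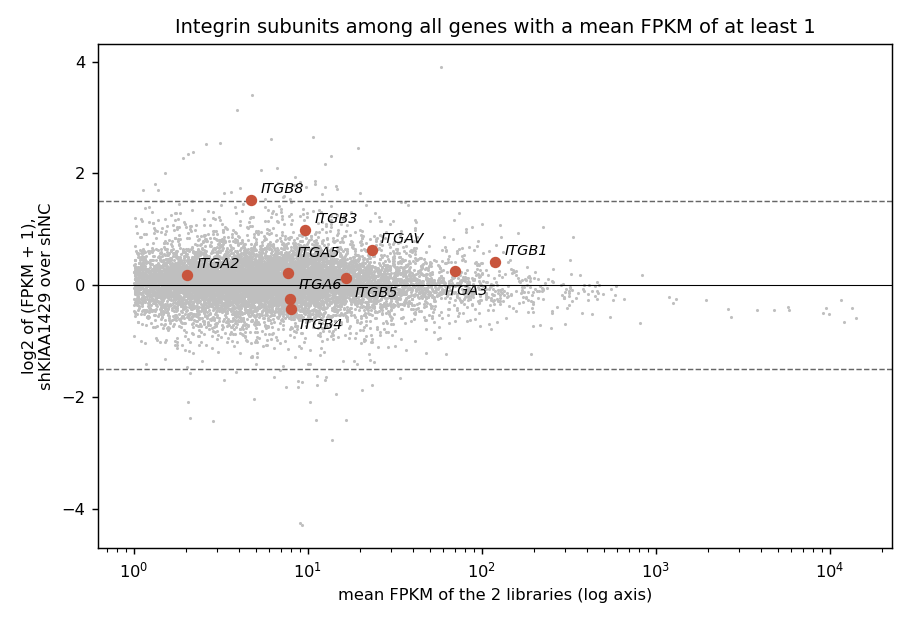
Log2 of (FPKM + 1) with shKIAA1429 over shNC (vertical axis) against the mean FPKM of both libraries (log axis) for the 10702 genes with a mean of at least 1 FPKM (grey points) and the 10 integrin subunits (red), with dashed lines at 1.5 in either direction. ITGB8 lies at 1.52, just past the upper line, and the other 9 subunits lie between -0.43 and 0.98.

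**Figure D4:**
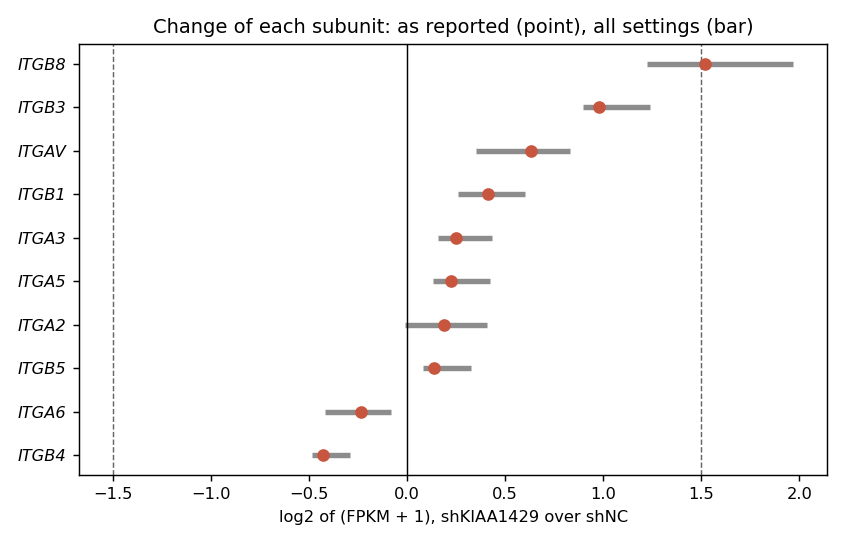
Log2 change of each of the 10 subunits as reported (points) and the span over the reported value and 6 alternatives of pseudocount, scaling and correction (bars), with dashed lines at 1.5 in either direction. ITGB8 spans 1.22 to 1.97 and crosses the limit, ITGB3 spans 0.90 to 1.24, and ITGA2 alone crosses 0.

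The annotated transcripts of the 10 subunits differ in ways that the choice of genes did not use. In GENCODE 29, the longest coding transcript of ITGB8 has 8751 bases in 14 exons, with a coding sequence of 2310 bases and 5757 bases after the stop codon, and a GC content of 37.8%. The median over the genes compared was 3368 bases and 48.5%. ITGB4 had the highest GC content of the 10, 63.7%, and the longest coding sequence, 5469 of 5919 bases in 40 exons. ITGAV and ITGB1 also had a low GC content, 38.3% and 40.0%, and so did ITGA2 and ITGA6, at 40.2% and 42.9%. ITGB5 and ITGB3, at 54.3% and 52.3%, and ITGA5 and ITGA3, at 58.7% and 60.9%, lay above the median. Genes with transcripts like that of ITGB8 in GC content and length had a median log2 change of 0.30, and those like ITGAV 0.28, so transcripts of this kind were in general higher in the shKIAA1429 library. For ITGB4 the same median was 0.03 and for ITGA6 it was 0.18. ITGA6, with a low GC content, was thus lower where transcripts of its kind were mostly higher.

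KIAA1429 belongs to the complex that methylates adenosine in RNA, often within the letters GGACT. A search of the longest coding transcripts, on the transcript strand, found GGACT in 92.1% of those of all genes compared, with a median of 0.927 per 1000 bases. All 10 subunits held it. The transcript of ITGB8 had 3 matches, which is also the median count over all genes compared. Its density, 0.343 per 1000 bases, was the lowest of the 10. ITGA2 (0.381) and ITGA6 (0.534), also with 3 matches each, came next. ITGB4 had 11 (1.86 per 1000 bases) and ITGB5 had 9 (2.06 per 1000 bases). The matches of ITGB8, the subunit that differed most, and the last match of ITGB4, the subunit lowest relative to the control, are printed with 10 bases on either side (GENCODE 29, GRCh38, plus strand, GGACT in capitals). The first match of ITGB8 is in the coding sequence of exon 1 and the others in the last exon after the stop codon. The match of ITGB4 is in the coding sequence of exon 34. Methylation was not measured, and a match of letters is not a methylated site.
ITGB8, chr7:20331908-20331932: acttgttcttGGACTgggccaaggt
ITGB8, chr7:20411918-20411942: ttatccctatGGACTtagtctgatt
ITGB8, chr7:20413163-20413187: cttttctggaGGACTtaaaaattca
ITGB4, chr17:75754771-75754795: cactgcccagGGACTactccaccct

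None of the 10 subunits overlaps another listed gene on its strand in the positions the tables give. In GENCODE 29, ITGB3 overlaps the protein-coding gene AC068234.1 on its strand, ITGB8 and ITGB5 overlap non-coding genes or pseudogenes, and the other 7 overlap no gene on their strand. Reads of ITGB3 could therefore have been divided with AC068234.1, which is not listed. On the opposite strand, ITGB4 overlaps the listed gene GALK1, at 4.15 FPKM with shNC and 3.15 FPKM with shKIAA1429. The library kit marks strand, but whether the counting used it is not given in the sources used here.

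Of the 16 integrin subunits that are not among the 10, 7 were listed. Of these, 6 were higher in the shKIAA1429 library, where 57.3% of all genes were. None was higher by more than 1 with 1 FPKM added, against 1.61% of all genes. ITGA4, which pairs with ITGB1 and binds fibronectin and VCAM1, was at 2.05 and 4.25 FPKM, 2.08 times as high in FPKM, with a log2 change of 0.79 that came to 1.02 with 0.1 FPKM added and to 1.13 on rescaling to a sum of 1000000. ITGA11, a collagen receptor subunit, was at 1.04 and 2.53 FPKM, 2.44 times as high and also 0.79 (1.21 with 0.1 FPKM added and 1.26 on rescaling), and ITGA1, another collagen receptor subunit, at 1.04 and 1.79 FPKM, 0.45. ITGA1 overlaps the listed gene PELO on its strand, so its reads could have been divided with it. ITGAE and ITGA7 had log2 changes of 0.21 each, from levels under 2 FPKM. ITGB2, the beta subunit of leukocyte integrins, was at 8.15 and 7.60 FPKM, a log2 change of -0.09 that became 0.08 on rescaling to a sum of 1000000. None of the alpha subunits ITGAL, ITGAM, ITGAX and ITGAD that pair with ITGB2 was listed. ITGA8, ITGA9, ITGA10, ITGA2B and ITGB7 were not listed either.

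The lists of ligands and partners were described by their counts. Over the 6 pathway lists together, 73 of 93 genes were listed, 0 passed 1.5 in either direction, and 2 were higher and 1 was lower by more than 1, against 1.61% and 0.897% of all genes (2.5% in either direction). These counts moved with the processing: on rescaling to a sum of 1000000, 6 were higher and 0 lower, against 4.23% and 0.906% of all genes, and with 0.1 FPKM added 5 were higher and 1 lower, against 2.98% and 1.78%. Their median log2 change was 0.06, the same as over all genes.

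Of 22 matrix ligands, 20 were listed, with a median log2 change of 0.15. By any amount 13 were higher and 7 lower, against 57.3% and 42.7% of all genes. Those higher by more than 1 with 1 FPKM added were FN1 and TNC. Fibronectin (FN1), bound by ITGA5:ITGB1 and by the ITGAV pairs, was at 146 FPKM with shNC and 301 FPKM with shKIAA1429, a log2 change of 1.04 (0.94 once the trend with GC content and length was taken out). Tenascin C (TNC) was at 2.73 and 6.75 FPKM, a log2 change of 1.06 that became 0.999 after centring on the median of all genes. The highest of the genes below 1 was vitronectin (VTN), at 1.78 and 4.24 FPKM (0.91), which came to 1.21 with 0.1 FPKM added and to 1.3 on rescaling. The lowest was nidogen 1 (NID1), a basement membrane protein that binds laminin, at 22.8 and 12.2 FPKM (-0.85). The list was not sorted by receptor, so its values do not describe the ligands of ITGAV pairs as a group. Others that are ligands of ITGAV pairs include CTGF (log2 change 0.49), FBN1 (0.42), SPP1 (0.19), THBS1 (0.11) and CYR61 (0.001). Vitronectin and these genes were chosen for naming after their values were seen.

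The list of latent TGF-beta genes holds the TGF-beta ligands, the LTBP family and anchors of the latent form, of which the ITGB6 and ITGB8 receptors are known to bind the RGD motif in the propeptides of TGFB1 and TGFB3. It had 5 of 9 genes listed, with a median log2 change of -0.21. By any amount 1 was higher and 4 were lower, against 57.3% and 42.7% of all genes. TGFB2, whose propeptide lacks that motif, was lowest, at 17.2 FPKM with shNC and 12.1 FPKM with shKIAA1429 (-0.47), and LTBP2, a member of the LTBP family that does not bind latent TGF-beta, was highest, at 9.19 and 11.9 FPKM (0.34). TGFB1 was at 30.5 and 27.2 FPKM, a log2 change of -0.16 that became 0.02 on rescaling, and was named after its values were seen. TGFB3, LTBP1, LRRC32 and NRROS were not listed. LRRC32 and NRROS encode proteins that hold latent TGF-beta at the cell surface.

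Of 33 adaptors and kinases inside the cell, 29 were listed, with a median log2 change of 0.03. By any amount 15 were higher and 14 lower, against 57.3% and 42.7% of all genes. Vinculin (VCL), which links talin to actin in focal adhesions, was at 39.7 and 18.1 FPKM, a log2 change of -1.09 with 3 genes of its bin of 535 below it. The value was -0.94 on rescaling to a sum of 1000000, within 1. Talin 1 (TLN1), which binds the tails of beta subunits, was at 33.2 and 35.5 FPKM (0.10), and focal adhesion kinase (PTK2) at 7.79 and 8.64 FPKM (0.13). Both were named after their values were seen. The highest was RAP1B, a small GTPase that activates integrins through talin, at 6.61 and 11.5 FPKM (0.72).

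The 10 membrane partners were all listed, with a median of 0.02. By any amount 5 were higher and 5 lower, against 57.3% and 42.7% of all genes. PLAUR, the urokinase receptor, was highest, at 2.15 and 4.12 FPKM (0.70), and CAV1, the main caveola protein, lowest, at 495 and 419 FPKM (-0.24). The tetraspanin CD151, a partner of ITGA3 and ITGA6, was at 36.7 and 36.5 FPKM (-0.01, and 0.17 on rescaling), and was named after its values were seen. Of the hemidesmosome genes PLEC, DST and COL17A1, the first had a log2 change of 0.06 and the second of 0.27, and COL17A1 was not listed. The values of the plakin genes PLEC and DST, whose proteins attach to ITGB4, were therefore not below their control values as that of ITGB4 was.

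**Figure D5:**
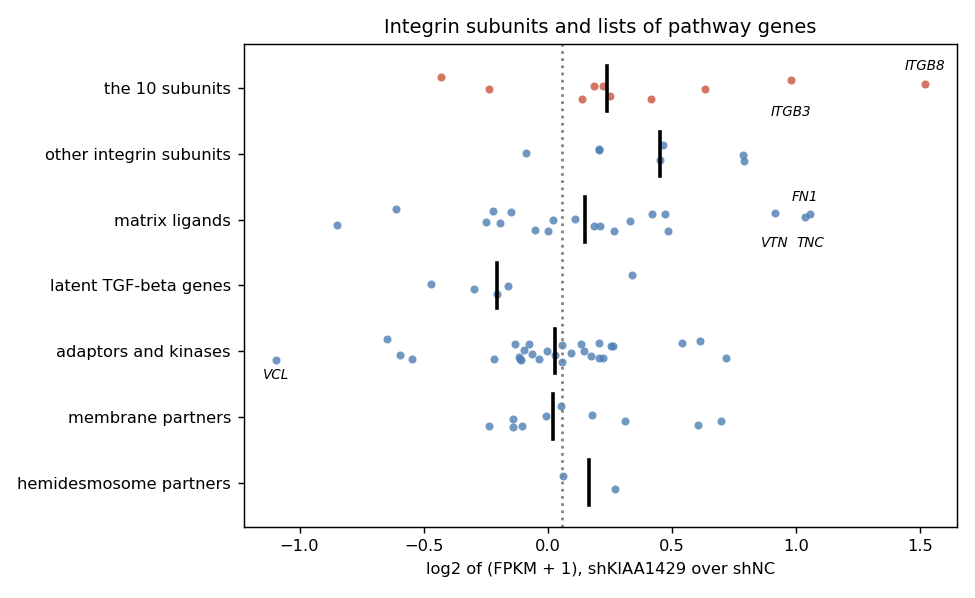
Log2 of (FPKM + 1) with shKIAA1429 over shNC for each listed gene (points, shifted vertically at random for legibility) of the 10 subunits (red) and of 6 lists of pathway genes (blue), with the median of each list (black bar) and of all genes (dotted line, 0.06). ITGB8 at 1.52 is the gene farthest to the right and VCL at -1.09 the one farthest to the left.

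The genes whose pair of values was nearest to that of ITGB8, by Euclidean distance over log2 of (FPKM + 1) in the 2 libraries, were C11orf24 (distance 0.170), SLC7A11 (0.199), SAMD8 (0.234), DEXI (0.237) and MAP1S (0.261). SLC7A11, the cystine transporter subunit, was at 1.92 FPKM with shNC and 6.38 FPKM with shKIAA1429. With 2 libraries this likeness rests on 2 numbers per gene.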

How the data were processed

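The RNA-seq data were 1 shKIAA1429 and 1 shNC library of ACHN cells, grouped by the treatment in the sample labels. The authors deposited FPKM per gene. The submitters' processing notes name cutadapt 1.9, HISAT2 2.0.4, StringTie 1.3.4d, DESeq2 and edgeR, with no role. The genome build is not given in the sources used here, and the positions are those of GENCODE genes on GRCh37. Each listed gene is above 0.5 FPKM in at least 1 library, so a gene that is not listed may be low in both. FPKM keeps no count, so the depth behind a value is unknown and counting error could not be computed.

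A pseudocount of 1 was added to each FPKM and the log2 ratio of shKIAA1429 to shNC taken, which understates changes of low genes. Of 7 symbols on several rows the row with the highest mean was kept, and 10702 genes had a mean of at least 1 FPKM. With 1 library per group, "higher by more than" a limit is a description. The 10 subunits and all lists were chosen with earlier results of these data known. All 10 were named, with every other listed integrin subunit, the highest, the lowest and up to 5 genes past 1 of each list, the 5 genes nearest to ITGB8, VIRMA, ACTB and GAPDH. Other genes are said to be named after their values were seen, or stand as markers or partners.

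The alternatives were a pseudocount of 0.1, centring, rescaling to a sum of 1000000 with or without mitochondrial genes, summing rows of a symbol, removing the median change of genes in 10 bins of GC content by 10 bins of length (longest coding transcript of GENCODE 29, found for 10644 genes and all 10 subunits), other filters and a limit of 1. A limit of 0.5, leaving out ITGB8 and counts of list genes past 1 by setting were added after seeing the data. GENCODE 29 is on GRCh38 and was matched by Ensembl identifier. The calculation was tested on simulated data. Python 3.11.15, NumPy 2.4.6, pandas 2.3.3 and matplotlib 3.10.9 were used.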

Additional observations from a re-analysis of the deposited data

How the results depend on the processing

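The count of subunits past 1.5 was 1 (ITGB8) as reported. It was 0 after subtraction of the all-gene median, 0 after removal of the trend with GC content and length, and 0 with a mean of at least 5 FPKM, which ITGB8 (4.71 FPKM) and ITGA2 did not reach. It was 1 under the other alternatives with that limit. With a limit of 1 the count was 1 as reported, but ITGB3 also passed 1 with a pseudocount of 0.1 (1.08). ITGB3 passed 1 as well on rescaling with (1.24) or without (1.08) mitochondrial genes. With a limit of 0.5 the count was 3 as reported (4 with ITGB1 on rescaling, and 2 without ITGAV once the trend was removed). Why GC content and length go with the changes was not tested. Of the 10 subunits, 9 kept 1 direction under 6 alternatives, and ITGA2 was at -0.01 with the trend removed. Over all genes, 0.383% were higher and 0.252% lower by more than 1.5, against 1.05% and 0.561% with a pseudocount of 0.1, 1.24% and 0.299% with rescaling, and 1.0% and 0.533% with rescaling without mitochondrial genes. The median over the subunits was 0.22 without ITGB8. The pathway lists held 0 genes past 1.5, and 3 (FN1, TNC and VCL) with a limit of 1. Of these lists, 2 genes were higher and 1 lower by more than 1 as reported, 5 and 1 with a pseudocount of 0.1 or rescaling without mitochondrial genes, 6 and 0 with rescaling, 0 and 1 after centring, and 1 and 1 with the trend removed. The share of ITGB8 among the beta partners of ITGAV, 3.69% with shNC and 9.51% with shKIAA1429, was 1.26% and 3.47% with ITGB1 included, and 8.22% and 19.7% without ITGB6, since the sum it is taken from differs. The median change of the other integrin subunits, 0.45, was 0.19 over the 2 subunits left with a mean of at least 5 FPKM. No paired analysis was possible because each group has a single library, 1 value per gene. The number of libraries and the unknown depth limit all values.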
